A study of Canis lupus familiaris with 34 samples.

Results

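Cultured cells of 3 canine lesions were set against primary cells of canine leukemias and lymphomas to find the genes that part the 2 sides without overlap. A probe set, the group of short probes by which the array reads a transcript, was kept where its lowest value on the higher side lay above its highest value on the lower side. Of 42860 probe sets, 1929 met this rule. Every cultured array lay above every lymphoid array for 1088 of them (2.54% of all), and every lymphoid array lay above every cultured array for 841 (1.96%). Because these values chose the probe sets, their separation is described here and given no test.

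RNA of 34 dogs was measured on Affymetrix Canine_2 arrays, 1 array per dog, as part of a study of hemangiosarcoma, a malignant tumor of cells that form blood vessels. The cultured side holds 10 hemangiosarcoma (HSA) cell lines and cultures from 3 splenic hematomas, a non-malignant lesion, all grown from the spleen, together with 5 osteosarcoma (OSA) cell lines from bone. The lymphoid side holds primary cells of 1 acute lymphoblastic leukemia (ALL), 2 chronic lymphocytic leukemias (CLL), 6 diffuse large B cell lymphomas (DLBCL), 1 marginal zone B cell lymphoma and 6 T-zone lymphomas (TZL). The values are log2 intensities after RMA, a method that corrects background and brings all arrays to a common distribution, so that 1 unit is a doubling of signal.

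The HSA lines Tucker, Journey, Frog, ChadG8, ChadG6 and ChadG4 came from golden retrievers, Joey from a Rottweiler, DD1 from a golden retriever crossed with a Great Pyrenees, ChadP9 from a Portuguese Water Dog and Dal4 from a Dalmatian. The hematoma cultures came from a golden retriever (Pippin), a Standard Poodle (Baxter) and a Keeshond (Kylie). The OSA lines OSCA20, OSCA23, OSCA59, OSCA71 and OSCA75 and 15 of the 16 lymphoid samples came from golden retrievers, and the ALL, Rascal, from a golden retriever mix. HSA and hematoma tissue was grown under conditions that favor endothelial cells, and the earliest passages at hand were used, so each line stands for the cells of its dog that grew. No cultured lymphoid cells and no uncultured mesenchymal cells are among the arrays. Cell lineage and growth in culture therefore differ together between the sides and cannot be told apart. In these bulk samples, fewer cells of a type and less RNA per cell cannot be told apart either.

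Mesenchymal cells in culture hold on to their substrate through integrins and focal adhesions, pull on it with bundles of actin and myosin, and secrete the collagens and glycoproteins of the extracellular matrix. Lymphocytes live largely unattached, and they run their receptors and their cytoskeleton with a set of signaling proteins that few cells outside the blood make. Several of these blood cell proteins have close relatives that most other cells use in their place.

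Quality controls differed between types. The hybridization spikes, control RNAs added to each sample, read 9.25 to 9.78 in HSA, 9.45 to 10.16 in hematoma, 10.00 to 10.82 in OSA, 10.69 to 11.14 in leukemia and 10.04 to 11.32 in lymphoma. The 3′ end of the actin control exceeded the 5′ end by 3.02 to 4.63 in leukemia, against −1.05 to 3.21 on all other arrays. The part of these controls in the results was not tested. Arrays of the same side correlated at 0.951 (cultured) and 0.930 (lymphoid) on average and arrays of different sides at 0.822. The lowest value on the cultured side fell to OSCA71 in 272 of the 1088 probe sets, and the highest value on the lymphoid side to Rascal in 169. Rascal was also the lowest lymphoid array in 222 of the other 841 probe sets, and OSCA59 the highest cultured array in 146. Without OSCA71 the 2 counts would be 1225 and 934, without Rascal 1270 and 1038, and without Snuggles, a DLBCL whose matrix genes stood out, 1109 and 858. Leaving out an array can only raise these counts.

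**Figure D1:**
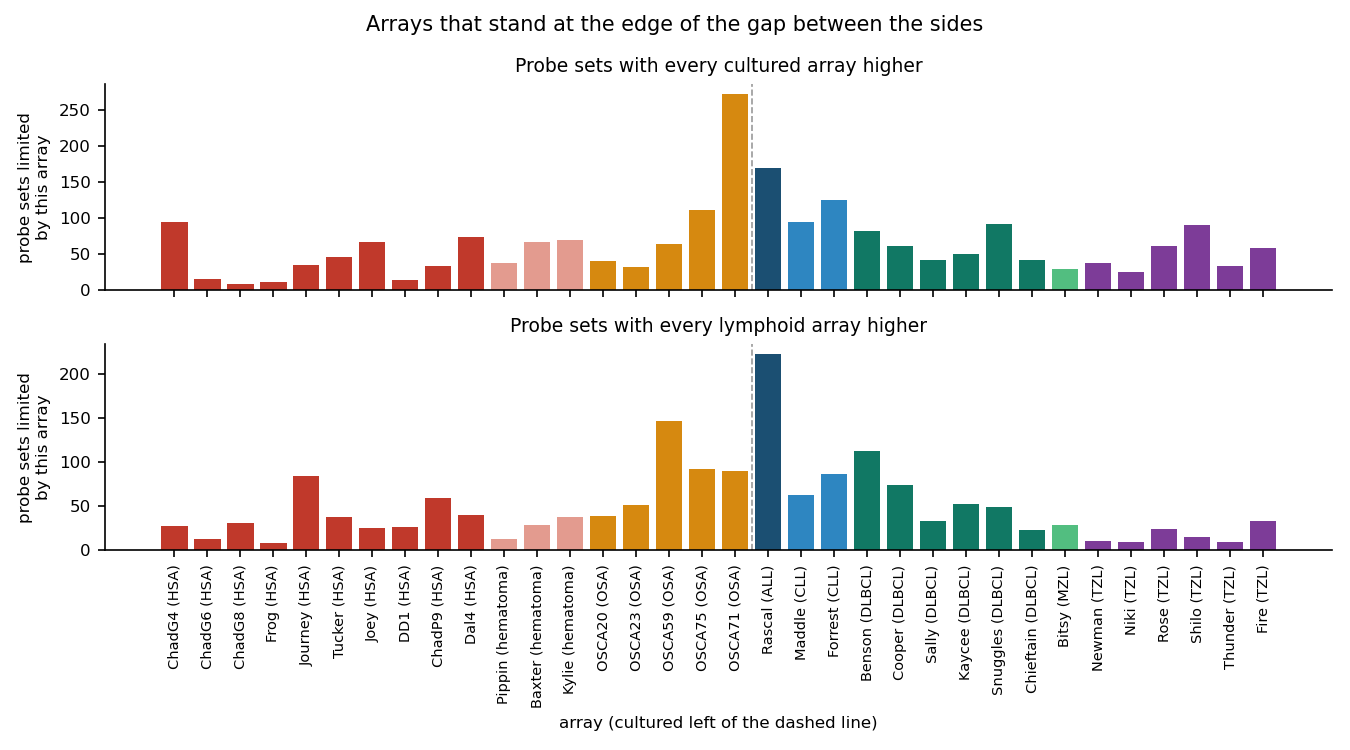
Number of probe sets (vertical axis) for which each array (horizontal axis, cultured arrays left of the dashed line) is the lowest of the higher side or the highest of the lower side. OSCA71 limits 272 of the 1088 probe sets that are higher in culture, and Rascal limits 222 of the 841 that are higher in lymphoid tumors.

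The separation ranged from a bare margin to more than 7 log2 units. The gap, the distance between the nearest arrays of the 2 sides, had a median of 0.634 for probe sets higher in culture and 0.416 for those higher in lymphoid tumors. The gap exceeded 1 log2 unit in 404 and 246 probe sets, and 3 log2 units in 66 and 68. In 167 of the 1088 (15.3%) and 163 of the 841 (19.4%), all arrays of the higher side lay above their own array's median and all arrays of the lower side below it. The other members were above or below that median on arrays of both sides. At the edge of the rule, the cultured and lymphoid ranges of PTGIS, which makes prostacyclin, were 4.86 to 9.27 and 3.67 to 4.85, and EXT1, which builds heparan sulfate, had ranges of 9.53 to 11.37 and 7.04 to 9.51. NBAS, a protein of retrograde transport, fell just outside, because the lowest cultured array and the highest lymphoid array both read 8.29. On the lymphoid side TREM2, a receptor of macrophages, was just inside, with 5.45 on both its highest cultured and its lowest lymphoid array after rounding, and RAB4B, a GTPase of endosomes, just outside, with a highest cultured value of 8.88 above a lowest lymphoid value of 8.87.

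Each gene was read from a single probe set, that of its singly named probe sets whose average over all 34 arrays was highest. By this reading, 443 of 15115 named genes (2.93%) were higher on every cultured array and 374 (2.47%) on every lymphoid array. Where a gene higher in culture had several probe sets, all of them differed in the same direction in 81.7% of 328 genes. For genes higher in lymphoid tumors this share was 95.5% of 222, and over all genes with several probe sets it was 74.6%. The median difference over all named genes, cultured minus lymphoid mean, was −0.14.

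PLS3 had the widest gap of the genes higher in culture. PLS3 encodes plastin 3, which bundles actin filaments in cells outside the blood. Its level was 12.34, 12.79 and 13.04 in HSA (lowest, median and highest of 10). It was 12.61, 12.70 and 12.75 in the hematoma cultures Pippin, Baxter and Kylie, and 12.86, 13.03, 12.93, 12.74 and 12.73 in the OSA lines OSCA20, OSCA23, OSCA59, OSCA71 and OSCA75. It was 3.68 in the ALL Rascal, 3.62 and 3.17 in the CLLs Maddle and Forrest, 3.16, 3.89 and 6.20 in DLBCL, 3.55 in the marginal zone lymphoma Bitsy and 3.51, 4.36 and 5.25 in TZL (lowest, median and highest of 6 each). All 18 cultures thus lay within 1 log2 unit of one another, and the nearest lymphoid array, the DLBCL Snuggles, was 6.14 below them.

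CAV1, caveolin-1, forms the coat of the flask-shaped membrane pits called caveolae. Its level was 11.998, 13.17 and 13.54 in HSA, 11.88, 13.22 and 13.30 in the 3 hematoma cultures (Pippin, Baxter, Kylie) and 12.13 to 13.41 in OSA. On the lymphoid arrays it was 4.03 in Rascal, 4.52 and 3.76 in Maddle and Forrest, 3.73 in Bitsy, 3.87 to 4.30 in TZL and 3.72 to 7.98 in DLBCL. A single array, that of Snuggles at 7.98, stood between the sides, and all the other lymphoid arrays were at or below 4.55. All 3 probe sets of CAV1 separated the sides, with differences of +8.37, +8.45 and +8.60.

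Cytoskeletal and matrix proteins made up most of the other 8 named genes with the widest gaps in culture. DPYSL3, a regulator of the cytoskeleton first known from neurons, was at 10.31 to 12.55 in culture and 3.90 to 4.98 in lymphoid tumors. MAP1B, which binds microtubules, was at 9.11 to 11.96 against 3.20 to 5.24, and CTTN, cortactin, which promotes branching of actin filaments, at 11.79 to 12.83 against 5.78 to 8.03. FERMT2, kindlin-2, which helps to activate integrins, was at 10.48 to 13.27 against 3.73 to 6.63. LOXL2, an enzyme that crosslinks collagen, was at 12.35 to 13.87 against 4.998 to 8.14, and COL4A2, a chain of basement membrane collagen, at 9.82 to 13.26 against 3.60 to 5.89. MPDZ, a scaffold protein with many PDZ domains, was at 8.22 to 10.87 against 3.09 to 4.16, and GPX8, a peroxidase of the endoplasmic reticulum, at 11.63 to 12.48 against 4.07 to 7.31. DPYSL3, LOXL2 and CTTN each had another probe set with a small difference of the opposite sign (−0.05, −0.23 and −0.48).

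RAC2 separated the sides more widely than any other named gene, in the opposite direction. RAC2 is a small GTPase of blood cells that steers their actin cytoskeleton. Its level was 4.81, 5.06 and 5.50 in HSA, 5.26, 5.06 and 5.02 in Pippin, Baxter and Kylie, and 4.83, 5.41, 5.39, 5.43 and 5.42 in OSCA20, OSCA23, OSCA59, OSCA71 and OSCA75. It was 13.22, 13.78 and 13.72 in Rascal, Maddle and Forrest, 12.78, 13.05 and 13.74 in DLBCL, 13.42 in Bitsy and 13.41, 13.59 and 13.81 in TZL. No array on either side was far from its own side, and the gap was 7.28. Its second probe set also separated, with a gap of 4.93.

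CD48, a surface protein of lymphocytes and other blood cells that binds CD2 and CD244, behaved alike. It ranged from 3.74 to 5.08 in culture, with hematomas at 3.91, 4.41 and 3.74, and from 11.45 to 12.69 in lymphoid tumors, with leukemias at 11.78, 12.26 and 12.08. Its 2 probe sets had gaps of 6.38 and 6.65. LAPTM5, a lysosomal membrane protein of blood cells, was at 3.78 to 5.67 in culture and 12.58 to 14.10 in lymphoid tumors, and CD37, a tetraspanin of mature lymphocytes, at 3.74 to 4.45 and 9.86 to 12.76. CLEC2D, a ligand of the natural killer cell receptor KLRB1, was at 2.74 to 3.26 and 10.24 to 11.91. RIPOR2 was at 3.14 to 3.70 and 9.46 to 13.24. LYZ, lysozyme, an enzyme made above all by myeloid cells, belongs to the same 10 and is described with the myeloid markers. The loci LOC475935 and LOC612422, which have no gene name in the annotation used, completed the 10, at 11.31 to 13.85 and 10.98 to 13.17 in lymphoid tumors and at most 5.10 and 5.04 in culture.

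**Figure D2:**
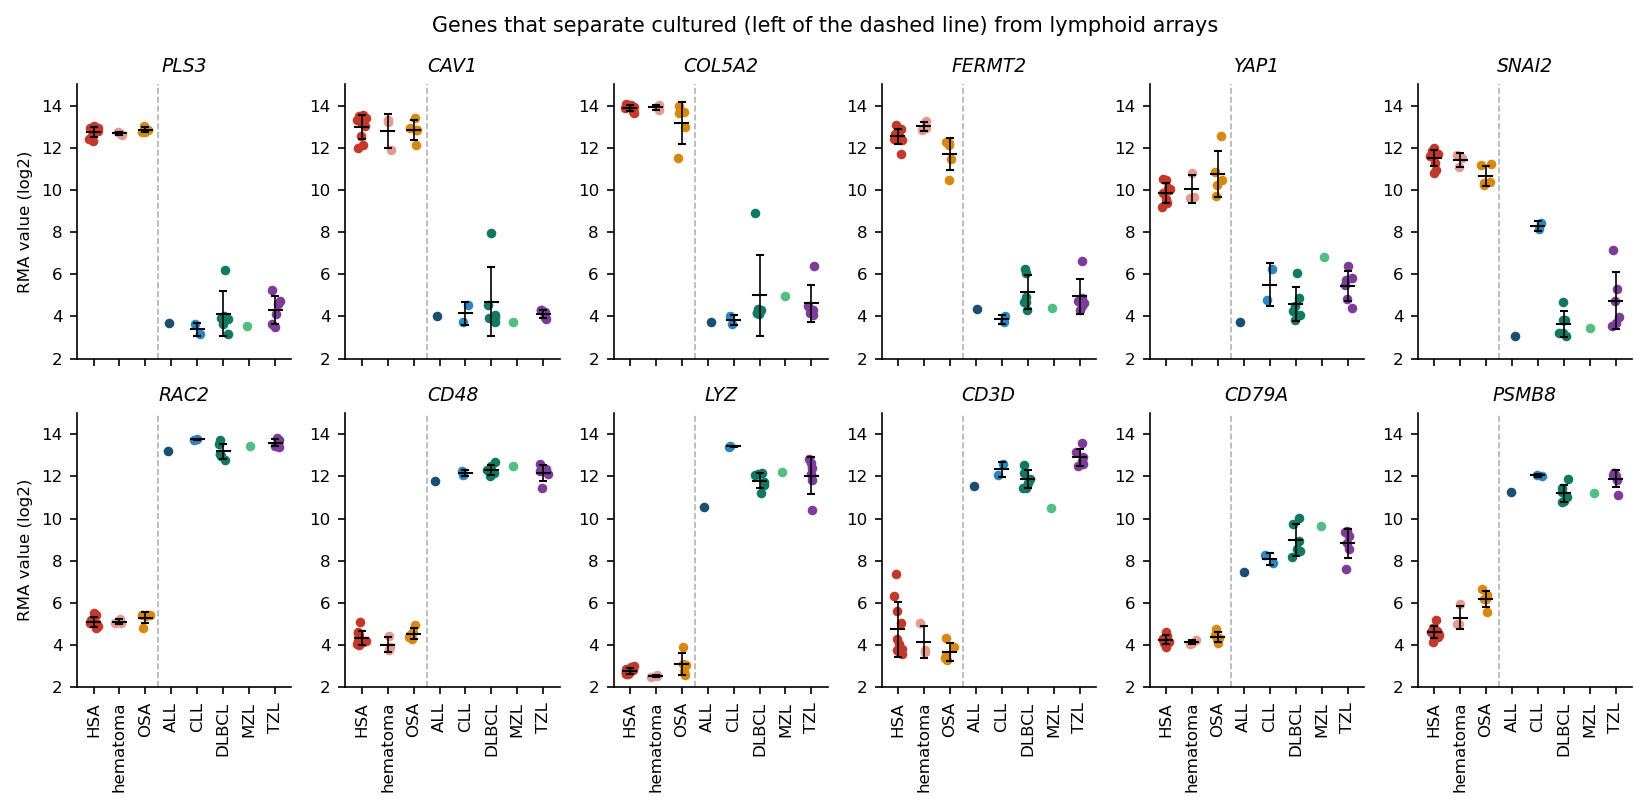
RMA value (log2, vertical axis) of 12 separating genes in each type of sample (horizontal axis; MZL is the marginal zone lymphoma), with points for single arrays and bars for mean and SD where a type has more than 1 array. The upper genes are higher on all 18 cultured arrays and the lower genes on all 16 lymphoid arrays, with CAV1 of 1 DLBCL, Snuggles, at 7.98.

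The separating genes were then read by function, using 22 lists with 414 genes on the array. The lists were written with earlier results of these data known, and none was tested as a list. Beside each count stands the median of its differences, cultured minus lymphoid, for comparison with −0.14 over all named genes. Of all named genes, 2.93% were higher on every cultured array and 2.47% on every lymphoid array. A short list with no separating gene is near these shares and is not read as a trait of its genes. A limma fit over 9339 genes that passed an intensity filter called 2025 (21.7%) higher in culture and 2007 (21.5%) higher in lymphoid tumors at an adjusted p of 0.001, and is used here for listed genes whose sides overlap.

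Genes of the extracellular matrix and of fibroblasts separated in 18 of 29 cases, all higher in culture, with a median difference of +6.16. The fibrillar collagen chains COL1A1 (11.26 to 14.44 in culture, 4.03 to 10.37 in lymphoid tumors), COL1A2 (13.76 to 14.37 against 3.14 to 11.65), COL5A1 (10.08 to 12.52 against 3.38 to 7.32) and COL5A2 (11.52 to 14.07 against 3.65 to 8.91) were among them. So were FN1, fibronectin, at 11.88 to 13.33 against 4.39 to 10.68, SPARC, which binds collagen, at 13.10 to 13.91 against 4.67 to 11.16, and LOX, which crosslinks collagen and elastin, at 9.14 to 12.21 against 3.90 to 5.56. Averaged over the list, cultures ranged from 10.63 to 12.17 and lymphoid arrays from 5.63 to 8.10. The highest lymphoid array was again Snuggles, followed by the TZL Shilo at 6.83. Whether stromal cells in these samples contribute was not tested.

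Not all defining mesenchymal markers set the cultures apart. Of 10 fixed for this check, COL1A1, COL1A2, COL5A2, FN1, SPARC and VIM separated. VIM, vimentin, the intermediate filament of mesenchymal cells and of lymphocytes, did so by 0.11 only (14.13 to 14.45 against 10.30 to 14.03). COL3A1 overlapped through its lowest cultured array, at 9.27, below a highest lymphoid value of 9.91, although its means differed by +6.20 (limma, adjusted p = 8.1e-18, standard error 0.34). PDGFRB, the receptor of pericytes and fibroblasts for PDGF, ranged from 5.10 to 10.70 in culture and from 5.10 to 6.42 in lymphoid tumors (difference +1.69; limma, adjusted p = 2.3e-04, standard error 0.38). THY1 and COL6A3 differed by −0.42 and +0.01, with overlapping ranges (adjusted p = 0.427 and 0.969 from limma). Other probe sets of these genes gave −0.65 for THY1 and +1.52 and +3.07 for COL6A3, again with overlap, so that the COL6A3 value rests on the chosen probe set. The cultures thus stood above the lymphoid arrays in most of these mesenchymal markers, but not in all.

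Markers of vessel and bone did not set the cultures as a whole above the lymphoid tumors. Of 18 endothelial markers 0 separated upward in culture and 2, PECAM1 and ICAM2, separated downward. PECAM1, the adhesion protein CD31 of endothelium, platelets and leukocytes, was at 3.41 to 4.04 in all cultures, HSA included, and at 5.70 to 10.24 in lymphoid tumors. VWF (4.40 to 5.91 in culture), CDH5 (4.48 to 5.63) and KDR (5.36 to 7.42) overlapped with the lymphoid arrays. FLT1 and ERG, at +1.185 and +1.177, were higher in culture on average but overlapped as well. Of the 18 differences 4 were positive and 14 negative. Of 7 genes within the filter, limma called 1 higher in culture and 2 higher in lymphoid tumors. The mean over the list was 4.72 to 5.64 on cultured and 5.41 to 6.79 on lymphoid arrays. Of 10 osteoblast markers 0 separated, and IBSP was at 2.96 to 3.96 in culture and 3.15 to 3.91 in lymphoid tumors. Of the 10 differences 2 were positive and 8 negative. DLX5, on the same list, was at 7.03 to 8.16 in the 5 OSA lines, the only cultures from bone. Its level was 3.84 to 5.20 in the other cultures and 3.65 to 6.29 in lymphoid tumors. Of 11 epithelial markers 0 separated. KRT8, a keratin of simple epithelia, ranged from 2.88 to 11.43 among the cultures and from 3.00 to 3.54 among lymphoid tumors. It was 2.88 to 3.19 in the OSA lines, 3.07 in the HSA line ChadP9, 8.31 to 10.63 in the other HSA lines and 8.06 to 11.43 in the hematoma cultures.

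Adhesion and contraction genes separated in the same direction as matrix genes. In the caveolae list 3 of 6 genes separated (median +3.52): CAV1, CAV2 (9.57 to 12.56 against 3.58 to 5.89) and CAVIN3, a coat protein of caveolae (10.28 to 11.77 against 4.58 to 6.89). In the focal adhesion list 10 of 28 separated (median +2.32), among them PARVA, an actin-binding partner of integrin-linked kinase (7.55 to 9.88 against 4.83 to 6.34), the docking protein BCAR1 (7.54 to 9.07 against 4.66 to 6.18) and PDLIM5, which joins signaling proteins to the cytoskeleton (7.74 to 11.49 against 5.09 to 6.72). Talin, TLN1, which links integrins to actin in blood cells too, differed by −0.05. In the contractile list 9 of 20 separated (median +3.97). Examples are the tropomyosin TPM2 (9.89 to 14.10 against 5.53 to 7.89), caldesmon, CALD1 (11.82 to 13.67 against 4.96 to 9.19), the calponin CNN3 (8.07 to 10.71 against 3.57 to 5.83) and CFL2, a cofilin that severs actin filaments (11.75 to 12.51 against 4.12 to 8.22).

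YAP1 and WWTR1 (TAZ), the coactivators through which cells read stretch and attachment, separated, and so did 3 of their TEAD partners. YAP1 was at 9.21 to 12.56 in culture and 3.73 to 6.82 in lymphoid tumors, and WWTR1 at 7.55 to 10.97 and 3.56 to 5.20. TEAD1, TEAD2 and TEAD4 differed by +2.70, +1.38 and +2.28. Their known targets CCN1 (CYR61), at 11.18 to 13.71 against 3.09 to 9.34, and CCN2 (CTGF), at 7.32 to 13.47 against 4.41 to 5.85, were also on the list, of which 10 of 17 genes separated (median +2.70). CCN2 was lower in the HSA line Joey, at 7.32, than on any other cultured array. F3, AJUBA and LATS2, on the same list, also separated, with differences of +7.09, +2.79 and +2.71. Several other listed genes overlapped between the sides. AXL differed by −0.15 in the chosen probe set and by +1.87 in another, NT5E by −0.29 in the chosen one and by −0.54, +0.36 and +0.23 in others, and ANKRD1 by +4.09.

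Of 21 mesenchymal transcription factors only SNAI2 (Slug), which represses E-cadherin, separated. It was at 10.22 to 12.01 in culture and 3.06 to 8.44 in lymphoid tumors, where the 2 CLLs were the highest. The list's median difference was +1.10, and 8 of its 13 genes within the filter were called higher in culture by limma. TWIST1, SNAI1 and ZEB1 differed by +1.45, −0.17 and +0.60. Of 24 hematopoietic factors 5 separated, all higher in lymphoid tumors (median −1.25). These were IKZF1 (Ikaros), at 6.69 to 8.17 against 4.28 to 5.34, SPI1 (PU.1), at 6.60 to 8.83 against 4.17 to 5.15, GFI1, at 5.49 to 9.65 against 4.50 to 5.12, BCL11A, at 5.51 to 9.96 against 4.49 to 5.32, and POU2F2.

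Signaling and cytoskeletal genes of blood cells gave the largest group on the lymphoid side. Of 44 listed genes 34 were higher on every lymphoid array, with a median difference of −4.36. PTPRC (CD45), the phosphatase that marks all leukocytes, was at 7.86 to 11.35 against 4.10 to 4.95 in culture. CORO1A, which binds actin in leukocytes, was at 10.75 to 13.19 against 3.91 to 7.53, and the tetraspanin CD53 at 6.74 to 12.53 against 4.02 to 5.26. Of the lineage markers, CD79A, CD79B, MS4A1, CD3D, CD3E, CD5 and LCK separated as well, and PAX5 and CD3G overlapped with the cultures.

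The single gene of that list that was higher in culture, DOCK8, gave readings in both directions. DOCK8 activates the GTPase CDC42 and is known for its part in lymphocyte migration. Its probe set with the highest mean was at 8.35 to 12.23 in culture and 3.53 to 7.56 in lymphoid tumors, and another separated in the same direction by 0.07. A further pair of probe sets was at 2.83 to 4.57 and 2.59 to 4.55 in culture and at 6.71 to 9.42 and 6.48 to 9.41 in lymphoid tumors. DOCK8 and C18H11orf49 were the only named genes with separating probe sets in both directions, and which transcripts these probe sets read was not examined.

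Genes of antigen presentation separated in 9 of 11 cases (median −2.96). CD74, the invariant chain of MHC class II, was at 9.47 to 14.13 in lymphoid tumors and 4.12 to 6.67 in culture, where Joey was the highest. The immunoproteasome subunits PSMB8 (10.81 to 12.18 against 4.17 to 6.67) and PSMB9 (11.27 to 13.56 against 5.50 to 9.39) and the peptide transporter TAP1 (10.31 to 12.54 against 7.16 to 9.12) separated with it, as did B2M by a difference of −1.38. CIITA and TAPBP, with differences of −0.32 and −0.56, did not.

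B cell and T cell genes separated even where they do not belong to the lineage of the tumor. Of 15 B cell genes 5 separated (median −3.14) and of 20 T cell genes 8 (median −3.24). CD79A, a signaling chain of the B cell receptor, was at 3.89 to 4.76 in culture, at 8.19 to 10.04 in DLBCL and at 7.60 to 9.43 in TZL, a T cell tumor. MS4A1 (CD20), a surface protein of B cells, was at 3.72 to 4.87 in culture, 10.70 to 12.40 in DLBCL and 7.67 to 10.996 in TZL. It was lower in the leukemias, at 6.985, 5.602 and 5.963 in Rascal, Maddle and Forrest. Conversely CD3D, a chain of the T cell receptor complex, was at 3.28 to 7.39 in culture, 12.50 to 13.56 in TZL and 11.43 to 12.52 in DLBCL, a B cell tumor. For these genes every lymphoid array, whatever its lineage, was above all cultures. Averaged over the B cell list, Rascal, Maddle and Forrest were at 6.33, 5.986 and 6.007, against 7.001 to 10.34 in lymphoma and 4.648 to 5.174 in culture. Over the T cell list they were at 7.165, 9.652 and 9.387, against 6.509 to 10.228 in lymphoma. The sample labels name no B or T lineage for the leukemias. Whether non-malignant lymphocytes in the samples contribute was not tested. PAX5, the factor that commits cells to the B lineage, stayed at 4.85 to 6.13 in lymphoid tumors and did not separate.

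Myeloid markers moved with the lymphoid side. Of 20 listed genes 6 separated (LYZ, S100A9, TYROBP, AIF1, CSF1R and FCGR1A), and the mean over the list was 6.27 to 8.39 on lymphoid arrays and 4.78 to 5.35 on cultured arrays. LYZ was at 2.62 to 3.00 in HSA, 2.59, 2.55 and 2.50 in Pippin, Baxter and Kylie and 2.59 to 3.92 in OSA. It was at 10.55, 13.41 and 13.43 in Rascal, Maddle and Forrest, 11.23 to 12.14 in DLBCL, 12.23 in Bitsy and 10.41 to 12.85 in TZL. S100A9, a calcium-binding protein of neutrophils and monocytes, was at 5.34 to 12.26 in lymphoid tumors and 3.46 to 4.36 in culture. The defining monocyte and macrophage markers CD14 (6.32 to 8.14 against 5.83 to 7.52) and CD163 (4.09 to 4.95 against 3.88 to 4.79) overlapped. The part of myeloid cells in the lymphoid values was not tested. Of 9 erythroid and platelet markers 0 separated.

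**Figure D3:**
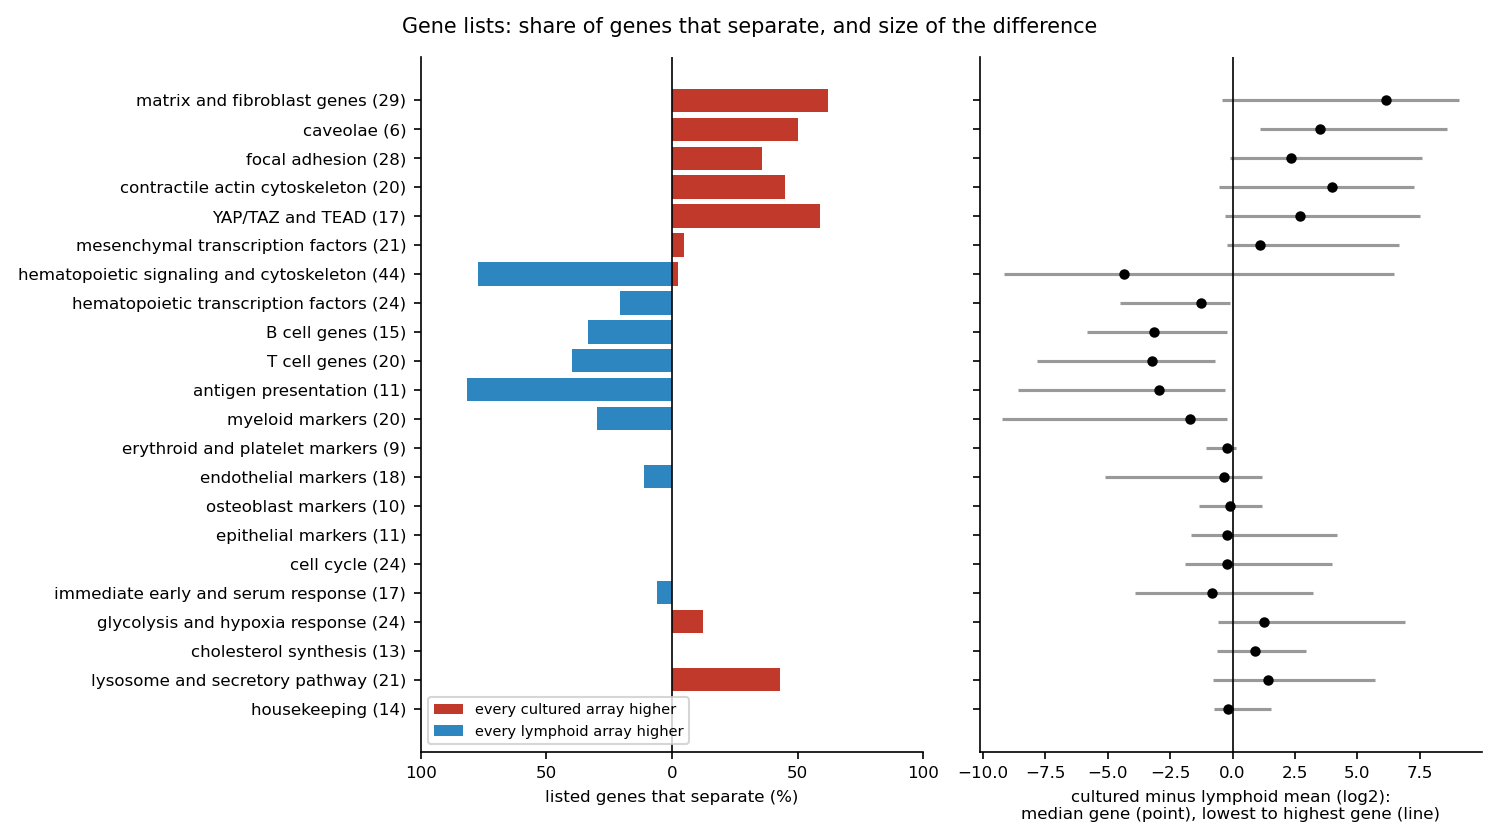
Left, share of the genes of each list (number on the array in parentheses) for which every cultured array (red, to the right) or every lymphoid array (blue, to the left) was higher, in percent. Right, difference of the side means (log2) as the median gene (point) and the lowest to highest gene (line). Matrix genes reach 18 of 29 and blood cell signaling genes 34 of 44. The cell cycle and housekeeping lists have 0, near the shares of all named genes (2.93% higher in culture, 2.47% higher in lymphoid tumors).

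Genes of general cell functions mostly overlapped, as did named genes at large. Of all named genes, only 2.93% were higher on every cultured array and 2.47% on every lymphoid array. Of 24 cell cycle genes 0 separated (median −0.23). CCND1, cyclin D1, came nearest, at 8.84 to 12.57 in culture and 5.64 to 9.27 in lymphoid tumors (difference +3.98; limma, adjusted p = 4.83e-13, standard error 0.32), and TOP2A, a topoisomerase of dividing cells, ranged from 4.46 to 11.80 and from 6.80 to 12.41. Of 14 housekeeping genes 0 separated, and their mean was 10.74 to 10.99 on cultured and 10.69 to 11.11 on lymphoid arrays. PGK1, a glycolytic enzyme in that list, was nonetheless higher in culture by +1.54 (limma, adjusted p = 6.5e-10, standard error 0.17). Of 13 cholesterol synthesis genes 0 separated (median +0.90).

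Some genes of the hypoxia response and of secretion were also higher on every cultured array. Of 24 genes of glycolysis and the hypoxia response 3 separated (median +1.27). These were ADM, the peptide adrenomedullin (8.39 to 13.10 against 4.07 to 6.44), P4HA1, a prolyl hydroxylase of collagen (9.89 to 12.26 against 5.81 to 8.13), and VEGFA, the growth factor of vessels (9.25 to 12.34 against 4.44 to 8.58). Over the list 19 differences were positive and 5 negative. PDK1, SLC2A3, NDRG1 and BNIP3 differed by −0.56, −0.57, −0.04 and −0.02. CA9 and EGLN3, at +1.94 and +1.22, overlapped between the sides. Of 21 genes of lysosomes and the secretory pathway 9 separated, all higher in culture (median +1.43). They include KDELR3, a receptor that returns proteins to the endoplasmic reticulum (11.25 to 12.99 against 5.24 to 8.49), the COPII coat protein SEC24D (10.63 to 11.96 against 4.80 to 8.66) and PLOD3, a lysyl hydroxylase of collagen (9.94 to 11.29 against 7.34 to 9.24). Of 17 immediate early genes IER2 alone separated, and it was higher in lymphoid tumors (11.88 to 13.48 against 10.22 to 11.60).

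Related genes with blood cell and broad expression often parted in opposite directions. The 35 pairs were written with earlier results of these data known and were not tested, and 31 had both genes on the array. The blood cell member was higher on every lymphoid array in 21 pairs and the broad member higher on every cultured array in 9, and in 7 pairs both held. Over all named genes, 2.47% were higher on every lymphoid array and 2.93% on every cultured array. The median differences were −4.10 for the blood cell members and +1.43 for the broad ones. In 10 pairs the members did not differ in these opposite directions, for example IRF8 and IRF3, at −0.98 and −1.11. The blood cell member had a negative difference in 30 pairs. The exception was TAGLN2, at +2.54, paired with TAGLN at +5.88. Which member counts as the blood cell or the broad one was set when the pairs were written. These labels were not checked against other tissues, and for TAGLN2 and TAGLN they may not hold.

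The largest contrast was between the kindlins. FERMT3, the kindlin of blood cells, was at 10.19 to 11.77 in lymphoid tumors and 4.12 to 4.86 in culture (difference −6.61), and FERMT2 differed by +7.57. Among the plastins, LCP1 (L-plastin) of leukocytes was at 11.48 to 13.62 against 6.61 to 10.93 in culture (−3.26), and PLS3 differed by +8.72. NCKAP1L (HEM1) and NCKAP1, alternative subunits of the complex that drives branched actin, were at 9.001 to 10.76 against 5.13 to 7.33 (−4.25) and at 3.11 to 8.96 against 11.09 to 12.53 (+7.03). The tetraspanins CD53 and CD63 differed by −6.84 and +1.79.

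In other pairs only the blood cell member separated. RAC1, the ubiquitous relative of RAC2, was at 12.30 to 13.25 in culture and 11.13 to 12.73 in lymphoid tumors, which overlap (difference +0.71; limma, adjusted p = 1.46e-06, standard error 0.11). CORO1C, at 8.89 to 11.04 and 7.44 to 9.96, overlapped as well, where CORO1A differed by −7.33. ITGB2, the integrin chain of leukocytes, was at 8.75 to 11.66 in lymphoid tumors and 4.54 to 5.49 in culture, and ITGB1, shared by most cells, at 6.71 to 10.65 and 10.41 to 13.46.

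**Figure D4:**
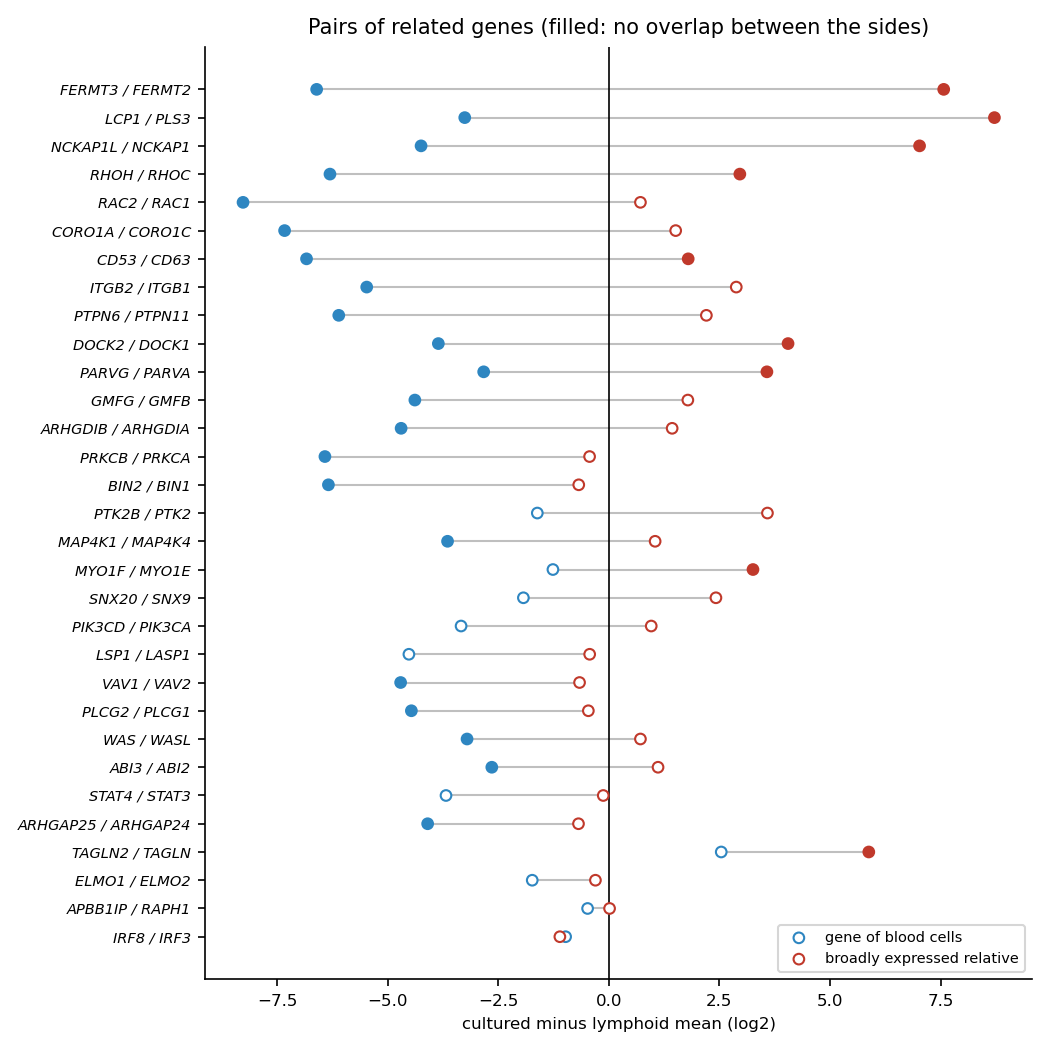
Difference of the side means, cultured minus lymphoid (log2, horizontal axis), for the blood cell member (blue) and the broad member (red) of 31 pairs of related genes (vertical axis). Filled points are genes without overlap between the sides. The largest contrast is FERMT3 at −6.61 and FERMT2 at +7.57.

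Members of the shared sets could still vary among the types within a side, which their choice did not use apart from favoring a small spread. The 3 culture types were compared by a limma F test over 10 HSA, 3 hematoma and 5 OSA arrays at an adjusted p of 0.05. Of all probe sets tested, 25.4% passed. Of the 1088 probe sets higher in culture, 1074 were tested and 247 passed (23.0%). The type with the highest mean was HSA in 91 of them, hematoma in 101 and OSA in 55. The same split was not counted over all probe sets that passed, so it is not read as a trait of the members. Of the 841 lower in culture, 411 passed the intensity filter. Because a probe set that is low in culture can pass it through 1 type alone, no count of calls is given for these.

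GJA1 (connexin 43), the main gap junction protein of connective tissue, had the mean 10.51 ± 0.64 in HSA (SD, n = 10), 9.42 ± 0.36 in hematoma (SD, n = 3) and 7.91 ± 0.59 in OSA (SD, n = 5), with an adjusted p of 9.81e-05 from limma's F test. Its lowest OSA line, OSCA23 at 7.55, was close to the highest lymphoid array at 7.39. TSPAN6, a tetraspanin, had the same order, at 12.57 ± 0.41 (SD, n = 10), 12.05 ± 0.27 (SD, n = 3) and 10.84 ± 0.28 (SD, n = 5), with an adjusted p of 6.9e-05 from limma. SHOX2, a homeobox factor of limb development, ran the other way, at 4.93 ± 0.27 (SD, n = 10), 5.86 ± 0.41 (SD, n = 3) and 6.61 ± 0.54 (SD, n = 5), with an adjusted p of 1.19e-04 from limma. It lay above the array median in 0 of 10 HSA, 2 of 3 hematoma and 5 of 5 OSA arrays, and without the intensity filter its adjusted p was 1.7e-04 from limma.

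CELF2, a regulator of splicing that is abundant in lymphocytes, showed how far a member can vary. Its level was 3.41 to 5.86 in HSA, 7.71, 5.81 and 5.59 in Pippin, Baxter and Kylie, and 10.50, 8.45, 9.78, 10.46 and 7.52 in OSCA20, OSCA23, OSCA59, OSCA71 and OSCA75. On the lymphoid arrays it was 11.002 to 12.46. All OSA lines but OSCA75 thus lay above every other culture, OSCA20 and OSCA71 came nearest to the lymphoid arrays, and among the culture types the adjusted p was 2.17e-05 from limma. PSMB8 had 4.61 ± 0.28 in HSA (SD, n = 10), 5.30 ± 0.55 in hematoma (SD, n = 3) and 6.19 ± 0.40 in OSA (SD, n = 5), with an adjusted p of 1.32e-04 from limma. CELF2 exceeded the array median in 1 of 10 HSA arrays and PSMB8 in 0 of 10, so that both entered the test mainly through the other types, and without the intensity filter limma gave 4.18e-05 and 1.8e-04. Leaving out any 1 of the 18 arrays ended none of these 5 calls.

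Leaving out whole types showed how much each one narrows the shared set. Without the 5 OSA lines 1739 probe sets would be higher and 1476 lower in culture, and all OSA lines lay on the side of the other cultures in 62.6% and 57.0% of these. The same share was 78.3% and 73.7% for the 10 HSA lines and 91.7% and 94.8% for the 3 hematoma cultures. Of the lymphoid types, the 3 leukemias had 74.5% and 69.4%, the 6 DLBCLs 83.2% and 68.3%, and the 6 TZLs 85.3% and 84.5%. Types with more arrays lower this share by number alone, so that the shares of OSA (5 arrays) and HSA (10 arrays) are not corrected for size. In golden retrievers alone, 12 cultured and 15 lymphoid arrays, 1519 and 1192 probe sets separated.

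Within the lymphoid side, 6 DLBCL and 6 TZL arrays were compared by limma at an adjusted p of 0.05. Of 21763 probe sets tested, 9.14% were higher in DLBCL and 9.32% in TZL. Of the probe sets higher in lymphoid tumors, 799 of 841 were tested and 281 passed, 46 higher in DLBCL and 235 higher in TZL. No count is given for those higher in culture, because a probe set that is low in lymphoid cells can pass the intensity filter through 1 type alone.

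The members with the smallest p included LCK and CD247, both higher in TZL. LCK, the kinase that starts signaling at the receptor, was at 7.80 ± 0.73 in DLBCL and 12.05 ± 0.28 in TZL (SD, n = 6 each), with −4.25 for DLBCL minus TZL (standard error 0.30; limma, adjusted p = 1.56e-06). CD247, the zeta chain of the receptor complex, was at 6.31 ± 0.57 and 10.15 ± 0.53 (SD, n = 6 each; −3.84, standard error 0.30, adjusted p = 3.05e-06 from limma). SLAMF1, a costimulatory receptor, differed by −3.15 and IL7R by −4.41 (adjusted p = 4.53e-06 and 6.78e-06 from limma). On the cultured side of the rule, MICAL2, an enzyme that oxidizes and disassembles actin filaments, was at 4.60 ± 0.51 in DLBCL and 8.07 ± 0.62 in TZL (SD, n = 6 each; adjusted p = 8.89e-06 from limma), against 10.92 to 12.30 in culture. It exceeded the array median in 0 of 6 DLBCL and 6 of 6 TZL arrays and so entered the test through TZL alone, and without the intensity filter its adjusted p was 2.93e-05 from limma. For the contrast between sides 2 of its other probe sets gave −0.86 and −0.38, so that its place among the genes higher in culture rests on the chosen probe set.

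The lineage genes named above differed by less. CD3D gave −1.05 for DLBCL minus TZL (standard error 0.24; limma, adjusted p = 0.00831) and MS4A1 +2.15 (standard error 0.55; limma, adjusted p = 0.0152), while CD79A gave +0.16 (standard error 0.38; limma, adjusted p = 0.84). The overlap of DLBCL and TZL in CD79A was nearly complete, at 8.19 to 10.04 and 7.60 to 9.43.

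Leukemia and lymphoma were compared over 3 and 13 arrays at the same threshold. Of 24896 probe sets tested, 1.21% were higher in leukemia and 0.916% in lymphoma. Of the probe sets higher in lymphoid tumors, 827 were tested and 30 passed, 27 of them higher in lymphoma. No count is given for those higher in culture, because a probe set that is low in lymphoid cells can pass the intensity filter through 1 type alone. Calls moved with single arrays. The 528 called over all probe sets became 1402 without the TZL Fire and 1122 without the TZL Thunder. They became 191 without the CLL Maddle and 188 without the CLL Forrest. The leukemia arrays also had the highest mean excess of the actin 3′ end, at 3.83, and the part of RNA quality was not tested.

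CD79B, FCRLA and DNASE1L3 were lower in the leukemias and TREM2 was higher. CD79B, a signaling chain of the B cell receptor, was at 5.14, 5.82 and 6.05 in Rascal, Maddle and Forrest and at 8.36 to 11.91 in DLBCL and TZL, or −4.53 for leukemia minus lymphoma (limma, adjusted p = 0.0012, standard error 0.65). FCRLA, a B cell protein related to Fc receptors, was at 5.39, 5.93 and 6.51 against a lymphoma mean of 11.13 ± 1.35 (SD, n = 13), with a difference of −5.19 (adjusted p = 0.0012 from limma). DNASE1L3, a secreted nuclease of myeloid and dendritic cells, was at 7.08, 7.66 and 7.26 in the leukemias and differed by −3.95 (adjusted p = 8.6e-04 from limma). TREM2 was higher in leukemia, at 10.91, 8.70 and 10.29 in Rascal, Maddle and Forrest against 5.997 ± 0.58 in lymphoma (SD, n = 13; difference +3.97, adjusted p = 4.16e-05 from limma).

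FHL2, a LIM domain protein of focal adhesions and the nucleus, was the one named member higher in culture among these calls. It was at 10.09 to 11.96 in culture, at 9.50, 6.88 and 7.44 in Rascal, Maddle and Forrest and at 4.18 to 5.77 in lymphoma (difference +2.92; limma, adjusted p = 8.6e-04, standard error 0.41). Rascal lay only 0.59 below the lowest culture. FHL2 exceeded the array median in 3 of 3 leukemias and 1 of 13 lymphomas, and without the intensity filter its adjusted p was 0.00147 from limma. Leaving out any 1 of the 16 arrays ended none of these 5 calls, the largest adjusted p being 0.0158, for FCRLA without Maddle.

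**Figure D5:**
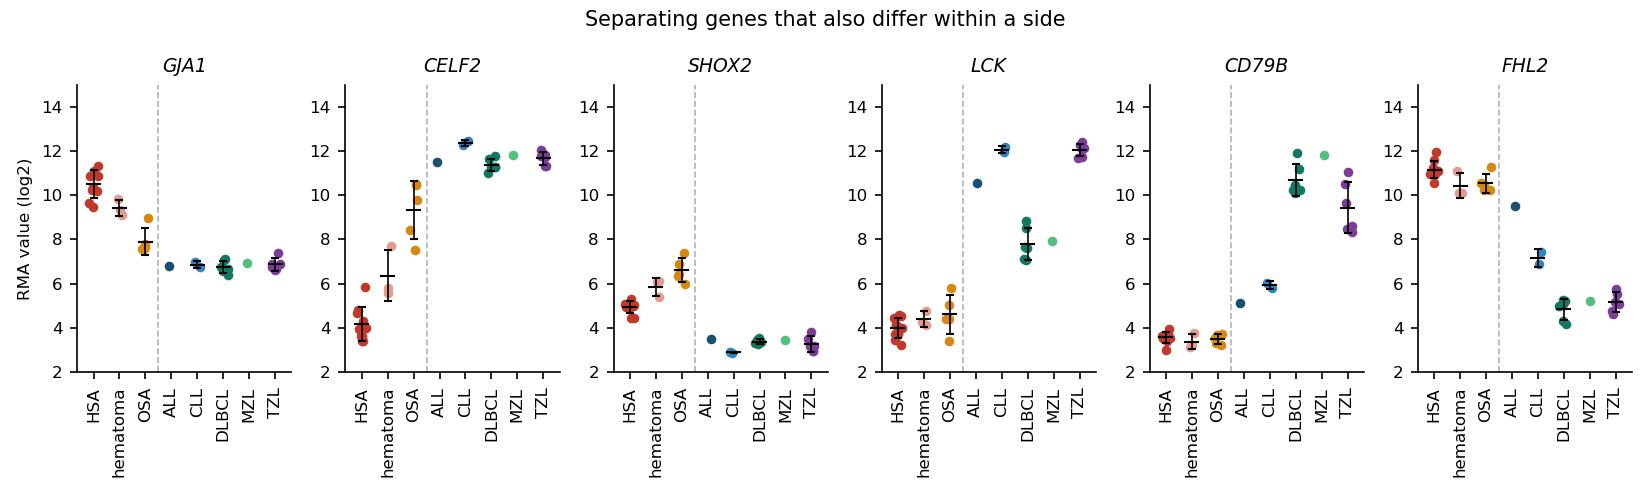
RMA value (log2, vertical axis) of 6 separating genes that also differed among types of the same side (horizontal axis as in the plot of members by array); points are arrays, bars are mean and SD. GJA1, CELF2 and SHOX2 differ among the culture types, LCK between DLBCL and TZL, and CD79B and FHL2 between leukemia and lymphoma.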

How the data were processed

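RNA of 34 dogs was hybridized by the study to Affymetrix Canine_2 arrays. The authors deposited log2 intensities after RMA (background correction, quantile normalization between arrays, summary over the probes of a set) from the affy package, whose version is not given in the sources used here. A common normalization forces similar totals on all arrays, and array medians ran from 5.57 to 5.77. The study names 1 sample run on 2 chips without saying which, and it could not be singled out here. Precision is limited by the number of arrays.

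Groups came from the sample labels. From the deposited values, 175 control probe sets were left out and 42860 analysed. Gene symbols came from the platform annotation, updated through RefSeq gene numbers (27680 probe sets matched). A single symbol was given for 29254 probe sets, several for 439 and none for 13167, and only the first kind was named. The members were probe sets without overlap between 18 cultured and 16 lymphoid arrays. The other comparisons used limma 3.58.1 in R 4.3.3 (lmFit, eBayes, Benjamini-Hochberg over all probe sets tested), keeping probe sets that exceeded the median of the array on 16 or more arrays between the sides, 3 for culture types and for leukemia against lymphoma, and 6 for DLBCL against TZL. The code was tested on simulated data. Tables and plots were made in Python 3.11.15 with pandas 2.3.3 and matplotlib 3.10.9.

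The members, the gene lists and the pairs of related genes were chosen with earlier results of these data known. Genes were named by rule: CAV1, RAC2 and CD48, the 10 widest gaps in each direction, up to 4 genes of each list, 8 pairs of related genes, up to 5 members for each test within a side, 3 genes just inside and outside the rule in each direction, and fixed cell type markers. Other listed genes in the text were picked after their values were seen. Alternatives covered the intensity filter, scaling, the size of the gap, probe sets that can match several transcripts, breed, types and single arrays left out, the prior of limma and other probe sets of a gene.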

Additional observations from a re-analysis of the deposited data

Results flagged for a closer look

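In groups of 4 to 10 arrays, the highest or lowest array was compared with its group by the share of the group's range that its gap to the next array takes (Dixon's criterion). For the genes named above and the means over the members, 456 groups of values were examined, and an array stood apart 57 times. Chance alone flags about 1 group in 20, and genes of the same array are not independent.

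Among DLBCL arrays, Snuggles stood above the others in 12 genes, most of them matrix and caveolar genes: CAV1 at 7.98, PLS3 at 6.20, GPX8 at 7.31, LOXL2 at 8.14, COL5A1 at 7.32, CAV2 at 5.89, NCKAP1 at 5.86, COL1A1 at 10.37, COL1A2 at 11.65, COL5A2 at 8.91, FN1 at 10.68 and SPARC at 10.90. All of these lay between the remaining DLBCL arrays and the cultures. In the same group Sally was low in PDLIM5 (5.09), Cooper low in IER2 (11.88) and VIM (10.30), Benson high in COL6A3 (6.78), Chieftain high in PDGFRB (6.10) and Kaycee low in CD14 (6.32).

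Among TZL arrays, Rose was low in LAPTM5 (13.56), PDLIM5 (5.48), PSMB8 (11.13), NCKAP1 (3.57), ITGB1 (6.71) and VIM (12.87) and high in TPM2 (7.89). Fire was low in CD37 (11.25), NCKAP1L (9.001), CD53 (11.63) and DNASE1L3 (10.00). Shilo was high in FERMT2 (6.63) and COL5A2 (6.41).

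Among HSA lines, Joey was low in CCN1 (11.18), CCN2 (7.32) and CCND1 (9.83) and high in CD74 (6.67). ChadP9 was low in KRT8, at 3.07 against 8.31 to 10.63 in the other lines. ChadG4 was low in FERMT2 (11.70), CNN3 (8.07) and NCKAP1 (11.50) and high in TSPAN6 (13.51) and VWF (5.91). ChadG8 was low in NBAS (8.29) and high in RIPOR2 (3.70), Dal4 low in CALD1 (11.93) and FCRLA (4.32), Journey high in CLEC2D (3.26) and Frog high in LAPTM5 (5.67).

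Among OSA lines, OSCA71 was low in TREM2 (4.71), BCAR1 (7.54), CALD1 (11.82), CD247 (3.41), ADM (9.81) and PAX5 (4.60). OSCA20 was low in RAC2 (4.83) and high in AIF1 (5.24) and GJA1 (8.95), and OSCA75 was low in DPYSL3 (10.31).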

How the results depend on the processing

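The counts of separating probe sets are set by the rule and its strictness. They fell to 404 (higher in culture) and 246 (higher in lymphoid tumors) with a gap of at least 1 log2 unit, and to 676 and 517 without probe sets that can match several transcripts. They rose to 1739 and 1476 without the OSA lines and, in a setting added after the data were seen, to 1940 and 1607 with 1 array allowed out of place. Leaving out single arrays gave 1089 to 1270 and 842 to 1038, and can by construction only raise them. Calls by limma between the sides changed to 8401 higher in lymphoid tumors without the intensity filter, where more probe sets are tested, and to 3167 higher in culture in golden retrievers alone. Calls among culture types were 3949 in golden retrievers alone. That fit had fewer arrays, left out hematoma and compared only HSA with OSA, so its count is not that of the same test. Leukemia against lymphoma depended most on single arrays, with 188 to 1402 calls overall (281 without Rascal) and 24 to 98 among the members. The member counts pool both directions. They include probe sets higher in culture, which can pass the intensity filter through 1 type alone, so they are not read as a trait of the members. The tests of single genes without the intensity filter were added after the data were seen. For the named genes, other probe sets of the same gene gave the opposite sign for DPYSL3 (−0.046), LOXL2 (−0.23), CTTN (−0.48), COL5A1 (−0.10), PARVA (−0.24), TPM2 (−0.031), KDELR3 (−0.23), SEC24D (−0.14), CELF2 (0.005) and MICAL2 (−0.86 and −0.38), and the cause was not tested. The median difference over all probe sets was −0.15 as deposited, −0.12 after centering arrays and −0.09 after quantile normalization. All comparisons were unpaired, since the labels name a different dog for each array. In the gene lists, 1 gene higher in culture appeared in place of 0 for the cell cycle when any probe set of a gene counted, and 1 for the immediate early genes under that setting and after centering. The other 445 recomputed counts and list medians stayed within 1.5 times (counts) or moved by less than the mean SD between arrays (medians).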

Other observations

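Members were unevenly spread over the chromosomes of the RefSeq dog assembly UU_Cfam_GSD_1.0, a count made after the data were seen and not tested. On chromosome 36, 13 of 126 named genes (10.3%) were higher on every cultured array, among them COL5A2, ITGAV, NCKAP1 and NFE2L2. On chromosome 12, 23 of 440 (5.23%) were higher on every lymphoid array, among them PSMB8, PSMB9, TAP1, TAP2, LTB and TNF, which lie in the major histocompatibility complex. Over all named genes these shares were 2.93% and 2.47%.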
